A study of Mus musculus with 60 samples.

Results

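Arntl, Clock and Npas2 encode the activators of the circadian clock, and they were followed here in the mid-colon of arthritic and healthy mice over 24 h. The 3 genes were taken by symbol, and they are 3 of the 27179 genes of the count table and 3 of the 18057 that passed the filter on low counts. The study collected colon from male DBA/1 mice aged 9 to 10 weeks at the start, every 4 h from ZT0 to ZT20 (Zeitgeber time, with ZT0 at lights on and ZT12 at lights off). Collagen-induced arthritis (CIA) mice received bovine type II collagen in Complete Freund's adjuvant and a boost of collagen on day 21, and their tissue was taken 7 days after symptoms appeared. Naïve mice shared the cages of CIA mice, received neither injection and were sampled at the same times. Each of the 12 groups of treatment and time held 5 mice, each mouse gave 1 library, and all 60 libraries were used. The sample was a 5 mm section of whole mid-colon with its muscle wall, so fewer cells of a type and less RNA per cell cannot be told apart.

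The protein of Arntl, also called BMAL1, pairs with the protein of Clock or with that of its close relative Npas2, and the pair binds E-box sequences and switches on target genes. Among these targets are the Per and Cry genes, whose proteins silence the pair, and Nr1d1 and Nr1d2, whose REV-ERB proteins repress Arntl while ROR proteins drive it from the same sequence, the RORE. In many tissues Arntl transcript therefore runs opposite to its targets, Clock transcript has a low amplitude, and Npas2 can take the place of Clock.

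Arntl (gene 11865) lies on chromosome 7 from 113178471 to 113314126 on the plus strand of GRCm38, Clock (gene 12753) on chromosome 5 from 76209868 to 76305603 on the minus strand, and Npas2 (gene 18143) on chromosome 1 from 39193702 to 39363240 on the plus strand. The bases just before the starts in the RefSeq promoter set, which lie inside these extents, are shown because the transcripts of the 3 genes rose and fell together in these data, and because the members differ in what these bases hold. They come from RefSeq, build GRCm38.p6, read 5′ to 3′ on the strand of the gene, with CCAAT boxes (CCAAT, or ATTGG on the other strand) in capitals. The Arntl stretch is chr7:113207215-113207464, the Clock stretch is chr5:76304793-76305042, and the Npas2 stretch, chr1:39194022-39194211, stops where another annotated exon begins.
Arntl: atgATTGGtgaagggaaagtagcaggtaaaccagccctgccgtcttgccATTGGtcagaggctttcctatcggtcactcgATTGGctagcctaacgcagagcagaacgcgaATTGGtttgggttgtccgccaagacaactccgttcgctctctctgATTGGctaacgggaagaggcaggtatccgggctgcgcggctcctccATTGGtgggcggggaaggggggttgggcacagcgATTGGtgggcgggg
Clock: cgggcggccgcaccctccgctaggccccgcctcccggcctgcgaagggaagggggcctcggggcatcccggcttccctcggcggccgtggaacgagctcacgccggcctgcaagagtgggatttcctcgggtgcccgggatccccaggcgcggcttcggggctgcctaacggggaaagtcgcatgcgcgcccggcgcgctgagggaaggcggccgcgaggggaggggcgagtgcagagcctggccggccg
Npas2: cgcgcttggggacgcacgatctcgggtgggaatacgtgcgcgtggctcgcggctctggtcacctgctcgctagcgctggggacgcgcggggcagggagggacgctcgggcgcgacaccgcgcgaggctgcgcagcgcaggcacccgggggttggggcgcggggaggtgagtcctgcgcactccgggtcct
The 250 bases before the Arntl start held 7 CCAAT boxes, and those before the starts of Clock and Npas2 held 0. Of the 32851 promoter windows in RefSeq, 33.9% held at least 1 such box, and 3 windows, or 0.009%, held 7 or more, of which 2 were the overlapping windows of Arntl. This motif was added after the sequence of Arntl was seen. The 250 bases before these RefSeq starts were 58.8% G and C for Arntl, 76.4% for Clock and 74.8% for Npas2, against a median of 52.4% over all windows.

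For clock motifs, windows from 250 bases before to 50 bases after each start were searched on both strands. The letters AGGTCA, the half-site of a RORE, were found once in Arntl, 31 bases after its other start, and once in Clock, on the opposite strand at position -119 from its most internal start. The 30 bases around each match are at chr7:113207530-113207559 for Arntl and at chr5:76303604-76303633 for Clock, with the half-site in capitals (TGACCT where it lies on the other strand).
Arntl half-site: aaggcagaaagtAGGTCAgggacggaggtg
Clock half-site: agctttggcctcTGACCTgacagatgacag
Of all windows 16.3% held this half-site. The window of Npas2 held none, and none of the 6 windows of the 3 genes held the E-box CACGTG or the D-box TTATGTAA, which 7.15% and 0.938% of all windows held. A match is a run of letters and was not tested as a binding site.

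Library totals ranged from 25840240 to 61425974 counts. Over the 60 libraries Arntl had 194 to 5534 counts, Clock 1441 to 4542 and Npas2 254 to 4015. Levels are counts per 1000000 (CPM) after scaling of library sizes by the trimmed mean of M-values. At ZT4 a library of each treatment stood apart at clock genes. Naïve ZT4 replicate 4 had Arntl at 12 CPM where the other 4 naïve libraries had 53.9 to 70.3, and Dbp, an output of the clock, at 84.2 CPM where the others had 4.03 to 11. CIA ZT4 replicate 4 had Arntl at 72.6 CPM where the other 4 CIA libraries had 28.7 to 41, and Dbp at 3.10 CPM where the others had 13.9 to 27.8. Nr1d1 was at 277 CPM against 67.5 to 139 in the first and at 55.9 CPM against 161 to 240 in the second. At Arntl, Dbp and Nr1d1 both libraries also lay outside the range of the other 4 libraries of the other treatment. Whether their labels of treatment and time are right could not be settled, so the levels of the 3 activators at ZT4 carry that doubt. Both libraries were kept as labelled, and results that rest on ZT4 are also given without them.

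Arntl had by far the widest swing of the 3 genes. The values that follow are in the order of replicates 1 to 5. With all 5 libraries per group the ranges of the treatments overlapped at every time for each of the 3 genes, while of all genes 2.74% at ZT0, 1.94% at ZT4, 1.11% at ZT8, 7.54% at ZT12, 1.81% at ZT16 and 11.1% at ZT20 did not overlap. At ZT0 Arntl was at 88.0, 63.6, 74.2, 99.7 and 64.9 CPM in naïve mice and at 64.8, 59.6, 90.4, 66.7 and 72.2 CPM in CIA mice. At ZT4 it was at 53.9, 58.5, 65.2, 12 and 70.3 CPM in naïve mice and at 41, 39.3, 28.7, 72.6 and 40.9 CPM in CIA mice. Apart from the pair of replicate 4 libraries, every naïve value at ZT4 lay above every CIA value. At ZT8 it had dropped to 15.5, 19.6, 18.8, 12.1 and 7.60 CPM in naïve mice and to 15.4, 12.6, 9.21, 14.8 and 7.71 CPM in CIA mice. The trough was at ZT12, with 6.83, 4.52, 8.83, 8.76 and 6.57 CPM in naïve mice and 8.88, 4.97, 10.8, 8.43 and 9.26 CPM in CIA mice. At both of these times the treatments overlapped. At ZT16 Arntl was at 15.6, 46.3, 18.6, 25.6 and 9.86 CPM in naïve mice and at 9.92, 27.5, 21.2, 26 and 28.2 CPM in CIA mice. At ZT20 it stood at 67.1, 77.1, 59.9, 79.8 and 65.8 CPM in naïve mice and at 72.6, 71.8, 47.4, 51.8 and 48.6 CPM in CIA mice. The group mean fell from 78.1 ± 15.5 CPM at ZT0 to 7.10 ± 1.79 CPM at ZT12 in naïve mice (SD, n = 5), an 11-fold range, and from 70.7 ± 11.9 to 8.47 ± 2.15 CPM in CIA mice, an 8.35-fold range.

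Npas2 followed the same course over a smaller range. At ZT0 Npas2 was at 61.6, 48.8, 56.9, 79.3 and 60.8 CPM in naïve mice and at 54, 35.7, 81.2, 51.7 and 48.3 CPM in CIA mice. At ZT4 the values were 37.5, 66.8, 61.7, 25.3 and 74.3 CPM in naïve mice and 49.1, 60.7, 43.6, 70.9 and 51.2 CPM in CIA mice. Npas2 was still near its ZT0 level at ZT4, and in CIA mice ZT4 had the highest mean, 55.1 ± 10.8 CPM (SD, n = 5). At ZT8 the values were 30.4, 22.1, 30.4, 25.1 and 17.7 CPM in naïve mice and 30.1, 23.6, 19.4, 34 and 16.6 CPM in CIA mice. At ZT12 they were 15.4, 16.8, 8.63, 17.1 and 9.60 CPM in naïve mice and 17.2, 11.1, 24.7, 18.3 and 18.5 CPM in CIA mice. This was the trough in both treatments, and it was shallower than that of Arntl. At ZT16 Npas2 had 17, 29.0, 26.2, 26.8 and 15.4 CPM in naïve mice and 22.3, 25.4, 19.4, 35.2 and 42.7 CPM in CIA mice. At ZT20 it had 38.9, 47.3, 40.4, 62.8 and 38.3 CPM in naïve mice and 47.2, 51, 39.3, 33.2 and 40.8 CPM in CIA mice. The highest group mean was 4.55-fold the lowest in naïve mice and 3.07-fold in CIA mice.

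Clock moved little. Its group means lay between 55.4 ± 5.11 CPM at ZT12 and 75.4 ± 10.6 CPM at ZT0 in naïve mice, and between 58.5 ± 2.86 CPM at ZT12 and 73.2 ± 10.4 CPM at ZT0 in CIA mice (SD, n = 5). At ZT0 Clock was at 72.2, 83.9, 82.3, 80.4 and 58.3 CPM in naïve mice and at 77.8, 73.3, 87.3, 59.8 and 67.8 CPM in CIA mice. At ZT12 it was at 55.1, 56.3, 49, 63.1 and 53.8 CPM in naïve mice and at 56, 57.6, 59.4, 56.5 and 63.1 CPM in CIA mice. Even between these extremes the libraries of ZT0 and ZT12 overlapped in each treatment. At ZT8 CIA replicate 4 had 84.3 CPM where the other 4 CIA libraries had 50.3 to 55.3 CPM. The highest mean was 1.36-fold the lowest in naïve mice and 1.25-fold in CIA mice.

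**Figure D1:**
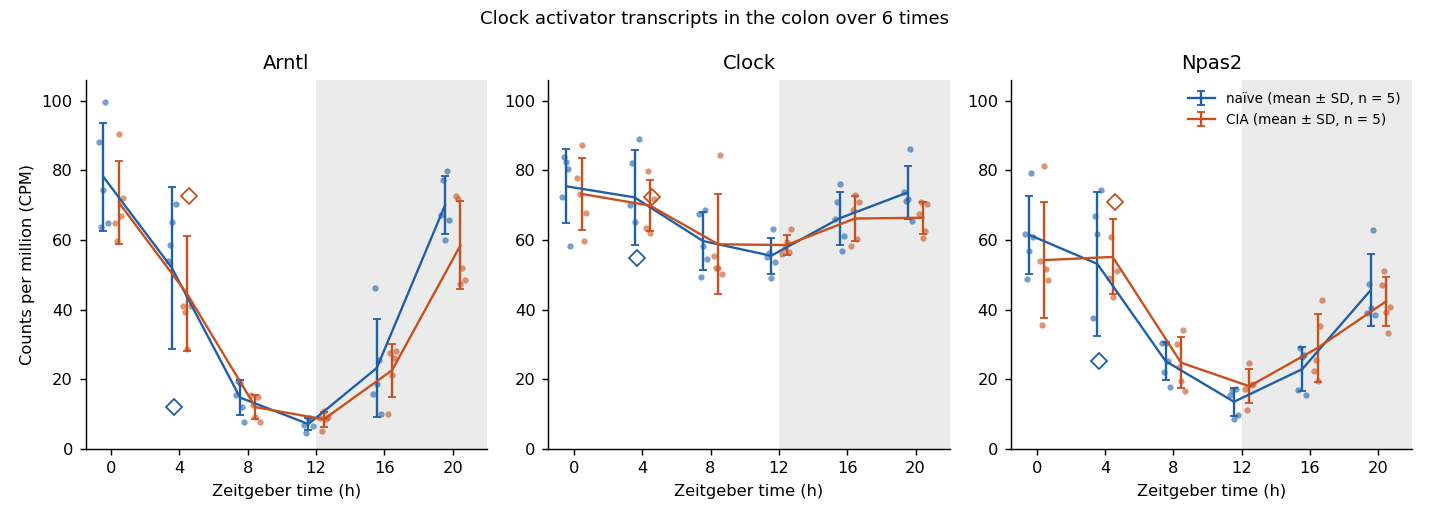
CPM of Arntl, Clock and Npas2 (vertical axis) at 6 Zeitgeber times (horizontal axis, hours, dark phase shaded) in 60 libraries. Points are mice, lines join group means with SD (n = 5), and open diamonds mark replicate 4 of each treatment at ZT4; Arntl and Npas2 fell to a trough at ZT12, and Clock stayed between 49 and 89.0 CPM.

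Placing the 6 times of each gene in order of mean level gave 30 pairs of neighbouring times over both treatments, and each pair was compared by an exact two-sided permutation test on 5 against 5 mice. None passed after adjustment over the 30, where the smallest p the design allows, 0.00794, became 0.119. That smallest value was reached by Arntl in CIA mice between ZT4 and ZT16 and by Npas2 in naïve mice between ZT20 and ZT8. In both of these pairs the groups did not overlap at all and still failed. The order was also taken from the same means. These tests therefore cannot decide whether neighbouring times differed.

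All 3 genes were rhythmic in both treatments. A 24 h cosine was tested with edgeR's quasi-likelihood F test in a fit of all 60 libraries, with p values adjusted over 18057 genes. In naïve mice the adjusted p was 1.81e-12 for Arntl, 1.96e-10 for Npas2 and 8.38e-04 for Clock, and in CIA mice 4.47e-12, 1.47e-07 and 0.0333. Over all genes 35.4% passed for the naïve libraries and 29.6% for the CIA libraries. For Clock in CIA mice the call was lost when time was a factor with 6 levels in place of the cosine (adjusted p = 0.150 from edgeR). It was also lost without CIA ZT0 replicate 1 or 3, ZT8 replicate 2, 3 or 5, or ZT12 replicate 1 or 4, 7 of the 60 libraries left out in turn, with adjusted p from 0.0515 to 0.0894 (edgeR). The other 5 calls held in each of those 60 runs.

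The size of the swing separated the 3 genes. The amplitude, from mean to peak on the log2 scale, was 1.76 ± 0.16 (SE, n = 30) for Arntl, 1.08 ± 0.11 for Npas2 and 0.22 ± 0.05 for Clock in naïve mice. The same amplitudes were 1.62 ± 0.11, 0.83 ± 0.10 and 0.16 ± 0.05 in CIA mice. Ranked by amplitude among 18057 genes, Arntl was number 10 in naïve and number 20 in CIA mice, Npas2 number 98 and number 337, and Clock number 7268 and number 8995. The difference between Npas2 and Arntl was -0.69 (95% interval -0.93 to -0.44) in naïve mice and -0.80 (-0.95 to -0.65) in CIA mice. As a share of 1, the cosine accounted for 0.81 and 0.88 of the variance of Arntl in naïve and CIA mice, for 0.79 and 0.70 of that of Npas2, and for 0.43 and 0.29 of that of Clock.

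The 3 genes peaked close to lights on, Npas2 after Arntl. Arntl peaked at ZT23.3 ± 0.35 h (SE) in naïve mice and at ZT23.1 ± 0.27 h in CIA mice, Clock at ZT23.0 ± 0.84 h and ZT23.1 ± 1.15 h, and Npas2 at ZT0.30 ± 0.38 h and ZT0.21 ± 0.48 h. Npas2 followed Arntl by 1.05 h (95% interval 0.42 to 1.67 h) in naïve mice and by 1.11 h (0.44 to 1.77 h) in CIA mice, intervals taken from the residuals of the same libraries. The peak of Clock differed from that of Arntl by -0.24 h (-1.81 to 1.34 h) in naïve and 0.01 h (-2.1 to 2.2 h) in CIA mice, intervals several hours wide. That of Npas2 differed from that of Clock by 1.3 h (-0.15 to 2.71 h) and 1.10 h (-0.97 to 3.17 h), intervals that include 0. A 12 h component beside the 24 h cosine passed in none of the 3 genes. The smallest unadjusted p was 0.0358 for Arntl in naïve mice, and edgeR called 0 of 18057 genes for it in either treatment.

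The targets and partners of the activators were placed against these peaks. All 6 repressor genes (Per1, Per2, Per3, Cry1, Cry2 and Ciart) were rhythmic in both treatments, as were all 5 output genes (Dbp, Tef, Hlf, Bhlhe40 and Bhlhe41). Nr1d1, Nr1d2 and Nfil3, which encode repressors that act on RORE and D-box sequences, were also rhythmic in both, among 4 of the 6 genes listed for the REV-ERB and ROR loop. Nr1d1, which encodes a repressor of Arntl, peaked 9.13 h (95% interval 8.43 to 9.84 h) after Arntl in naïve mice and 8.57 h (7.96 to 9.17 h) after it in CIA mice. Dbp, the output gene, peaked 11 h after Arntl in both treatments. Cry1 and Per2, which encode repressors, peaked before Arntl. The peak of Cry1 minus that of Arntl was -3.82 h in naïve and -3.98 h in CIA mice, and for Per2 it was -7.41 h (-8.35 to -6.48 h) in naïve and -8.78 h (-9.42 to -8.15 h) in CIA mice.

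**Figure D2:**
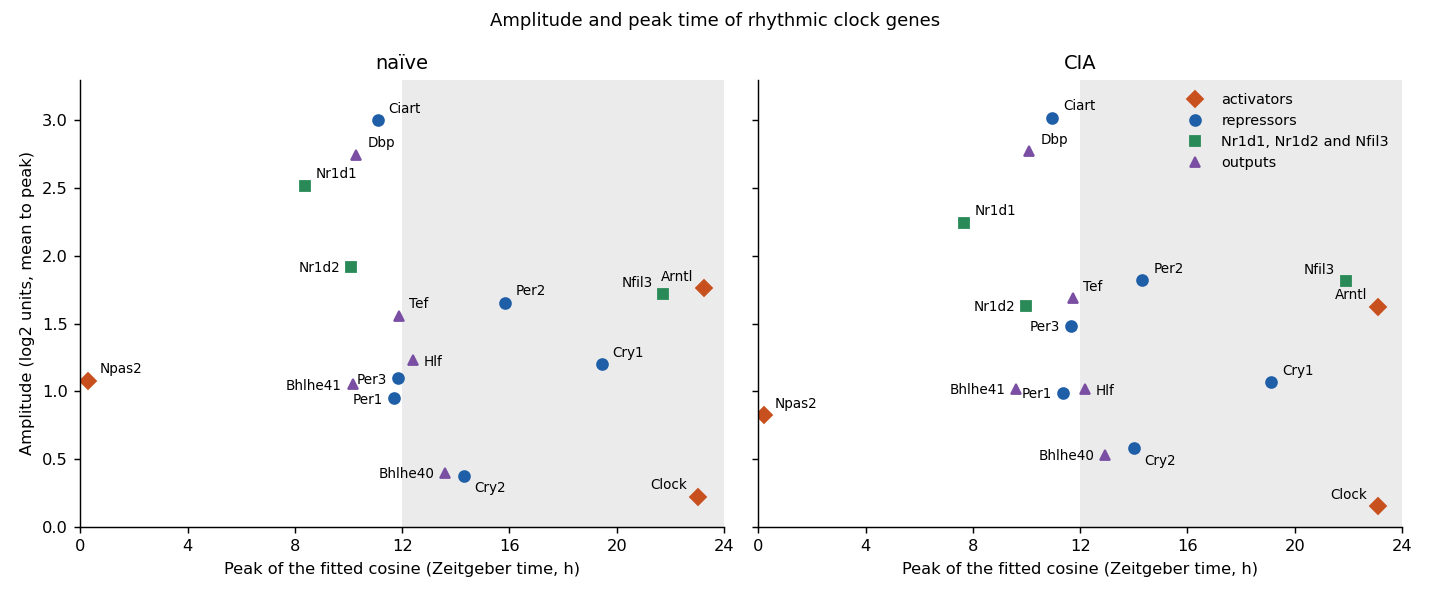
Amplitude of the fitted 24 h cosine (vertical axis, log2 units) against its peak (horizontal axis, Zeitgeber time in hours, dark phase shaded) for activators, repressors, outputs and the genes Nr1d1, Nr1d2 and Nfil3, each with a called rhythm, in naïve (left) and CIA (right) mice. Each symbol is a gene fitted on 30 libraries; the activators lie at both ends of the axis, around lights on, and Ciart, Dbp, Nr1d1 and Nr1d2 have larger amplitudes than Arntl in both.

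Other lists of genes around the activators were counted against the shares of all genes with a rhythm, 35.4% in naïve and 29.6% in CIA mice. Of 11 kinase and ubiquitin enzyme genes of the clock 5 were rhythmic in naïve and 3 in CIA mice, led by the deubiquitinase gene Usp2 with amplitudes of 0.87 and 1.12. Of 12 genes for chromatin partners 7 were rhythmic in each treatment, among them the corepressor gene Ncor1 (0.18 and 0.13) and the acetyltransferase gene Kat2b (0.16 and 0.12). Of 3 other E-box targets 2 were rhythmic in naïve and 3 in CIA mice. Of 13 other genes of the bHLH-PAS family, to which the activators belong, 11 were tested, of which 3 were rhythmic in CIA mice (Arnt, Hif1a and Hif3a) and 0 in naïve mice. The counts of the kinase and ubiquitin enzyme genes, and that of the bHLH-PAS genes in CIA mice, lie near these shares. A test of a difference in rhythm between treatments called 0 genes in each of these lists. For Arnt, Hif1a and Hif3a its adjusted p was 0.731 each (edgeR). Arntl2, the closest relative of Arntl, was at 1.1 CPM in naïve and 1.4 CPM in CIA mice, without a called rhythm (edgeR adjusted p = 0.604 and 0.351).

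None of the 3 genes differed between CIA and naïve mice past the test. Over all times Arntl averaged 40.8 ± 30.4 CPM in naïve and 36.1 ± 25.7 CPM in CIA mice (SD, n = 30), a log2 fold change of CIA over naïve of -0.18 (SE 0.31, edgeR adjusted p = 0.672). Clock averaged 67.1 ± 11.3 and 65.5 ± 9.53 CPM, a change of -0.04 ± 0.06 on that scale (SE; edgeR adjusted p = 0.654). Npas2 averaged 36.9 ± 20.4 and 37.2 ± 17.2 CPM, a change of 0.01 ± 0.19 (SE; edgeR adjusted p = 0.974). The spread here holds the whole daily swing, and 38% of all genes passed the same comparison. The 10 smooth muscle marker genes were all higher in CIA mice, where their summed level ran from 10203 to 35609 CPM (median 21846) against 5627 to 27226 CPM (median 12052) in naïve mice, and none was at 0. With the mean log2 CPM of these markers as a covariate the fold changes of the 3 genes were 0.03, 0.07 and 0.27, again without a call, and the sign for Arntl and Clock had turned. All 8 enteric neuron and all 5 enteric glia markers were also higher in CIA mice, as were 3 of 4 mesothelium and 4 of 8 skeletal muscle markers, while 4 of 7 immune, 3 of 10 epithelium and 1 of 4 fat markers were lower. The part of these markers in the levels of the 3 genes was not tested beyond the smooth muscle covariate. Of the pathway lists above, 1 of 6 repressors was higher in CIA mice (Cry2, by 0.26 on the log2 scale, SE 0.10, edgeR adjusted p = 0.0400), as was 1 of 11 kinase and ubiquitin enzyme genes. Of 12 chromatin partners 2 were higher, among them Kat2b by 0.26 (SE 0.04, edgeR adjusted p = 6.05e-06), and 2 were lower. Of the 11 bHLH-PAS genes tested 1 was higher and 3 were lower. The counts of the chromatin partners and of the bHLH-PAS genes lie near the 38% of all genes. These calls come from the fit without the smooth muscle covariate, and with it the calls over all genes fell from 6860 to 1124.

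Nor did any of the 3 genes differ between treatments at a single time, in 18 tests. The largest difference among them was that of Npas2 at ZT12, where naïve mice had 13.5 ± 4.07 CPM and CIA mice 18.0 ± 4.84 CPM, and the log2 ratio was 0.43 (SE 0.23, edgeR adjusted p = 0.292). At ZT20 Arntl was at 70.0 ± 8.27 CPM in naïve and 58.4 ± 12.7 CPM in CIA mice (-0.21, SE 0.13, adjusted p = 0.324). The test called 3.7% of genes at ZT12, 8.09% at ZT20 and 0 of 18057 at each of ZT0, ZT4, ZT8 and ZT16, where 1180 to 2875 genes had an unadjusted p under 0.05. At ZT4 the result of Arntl turned on the pair of replicate 4 libraries. With them the means were 52 ± 23.2 and 44.5 ± 16.5 CPM, a log2 fold change of -0.21 (SE 0.39). Without them they were 62.0 ± 7.22 CPM in naïve and 37.5 ± 5.88 CPM in CIA mice (n = 4), a log2 fold change of -0.71 (SE 0.14, edgeR adjusted p = 0.154), and the groups no longer overlapped, as was so for 12.8% of all genes in those 8 libraries. Because the pair was set aside for its values at these very genes, this difference is a description.

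The rhythm itself did not differ between treatments past the test. The edgeR test of equal cosine and sine terms gave an adjusted p of 0.904 for Arntl, 0.867 for Clock and 0.759 for Npas2, and called 4 genes or 0.0222%. Among 5 models of the rhythm the one with a rhythm shared by both treatments had the largest Schwarz weight, 0.977 for Arntl, 0.964 for Clock and 0.926 for Npas2, and 34.7% of all genes fell in that class. CIA minus naïve, the amplitude differed by -0.14 (95% interval -0.54 to 0.26) for Arntl, by -0.07 (-0.20 to 0.07) for Clock and by -0.25 (-0.55 to 0.05) for Npas2, and the peak of Arntl by -0.15 h (-1.04 to 0.73 h). Without the pair of ZT4 libraries the amplitude of Npas2 was 1.12 in naïve and 0.80 in CIA mice, a difference of -0.32 (-0.60 to -0.03), and the peak of Arntl was at ZT23.5 and ZT22.9, a difference of -0.58 h (-1.36 to 0.19 h). The edgeR test of the difference made no call for Npas2 in these 58 libraries either (adjusted p = 0.715). As the pair was left out for its values at clock genes, the intervals without it are a description.

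Which partner was more abundant depended on the time of day. Levels of different genes were compared per base of exon within each library, a ratio that does not depend on library scaling, using the exons of GENCODE transcripts matched to RefSeq (2908 bases for Arntl, 9925 for Clock and 4236 for Npas2). On this scale the group mean of Clock lay between 5.59 and 7.60 CPM per kilobase over the 12 groups, that of Npas2 between 3.19 and 14.5 and that of Arntl between 2.44 and 26.8. Npas2 exceeded Clock in 5 of 5 libraries of each treatment at ZT0, ZT4 and ZT20, and in 0 of 5 libraries of each treatment at ZT12. The ratio of Npas2 to Clock was 1.90 at ZT0 in naïve mice (range over mice 1.36 to 2.45) and 1.69 in CIA mice (1.1 to 2.2), and at ZT12 it was 0.55 (0.41 to 0.70) and 0.70 (0.45 to 0.97). At ZT8 and ZT16 it lay near 1, with 3 and 1 of 5 naïve libraries and 2 and 2 of 5 CIA libraries above it. Counted over the longest transcript these numbers of libraries were the same, and over all annotated exons Npas2 still exceeded Clock in every library of ZT0, ZT4 and ZT20, while at ZT12 it did so in 0 of 5 naïve and 1 of 5 CIA libraries.

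Arntl crossed Clock over the day, and whether it crossed Npas2 depended on the length. Over matched exons the ratio of Arntl to Clock ran from 3.51 at ZT0 to 0.43 at ZT12 in naïve mice and from 3.29 to 0.48 in CIA mice. That of Arntl to Npas2 was highest at ZT20 in naïve mice, 2.27 (1.85 to 2.52), and at ZT20 in CIA mice, 2.00 (1.73 to 2.27), and lowest at ZT12, 0.78 (0.39 to 1.49) and 0.69 (0.64 to 0.75). The level of Arntl against the other members depended on the length used: over all annotated exons Arntl exceeded Npas2 at ZT0 in 0 of 5 naïve and 1 of 5 CIA libraries, where the matched exons gave 5 and 5. On that length the group mean of the ratio of Arntl to Npas2 was below 1 at each of the 6 times. It ran from 0.34 to 0.99 in naïve and from 0.30 to 0.87 in CIA mice, so the group means no longer crossed. Single libraries still lay above 1, with 3 of 5 at ZT20 and 1 of 5 at ZT16 in naïve mice and 1 of 5 at ZT0 in CIA mice. The ratio of Arntl to Clock still ran from 1.88 at ZT0 to 0.23 at ZT12 in naïve and from 1.76 to 0.26 in CIA mice. The daily change of a ratio does not depend on the length. All 3 ratios had a 24 h rhythm in both treatments, by a permutation test with 100000 resamples that counted amplitudes at least as large. Each permutation p was 1e-05, the smallest these resamples can give, and 1.5e-05 adjusted over 9 tests. For the log2 ratio of Npas2 to Clock the amplitudes of naïve and CIA mice were 0.87 and 0.68, and for Arntl to Npas2 they were 0.78 and 0.87.

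**Figure D3:**
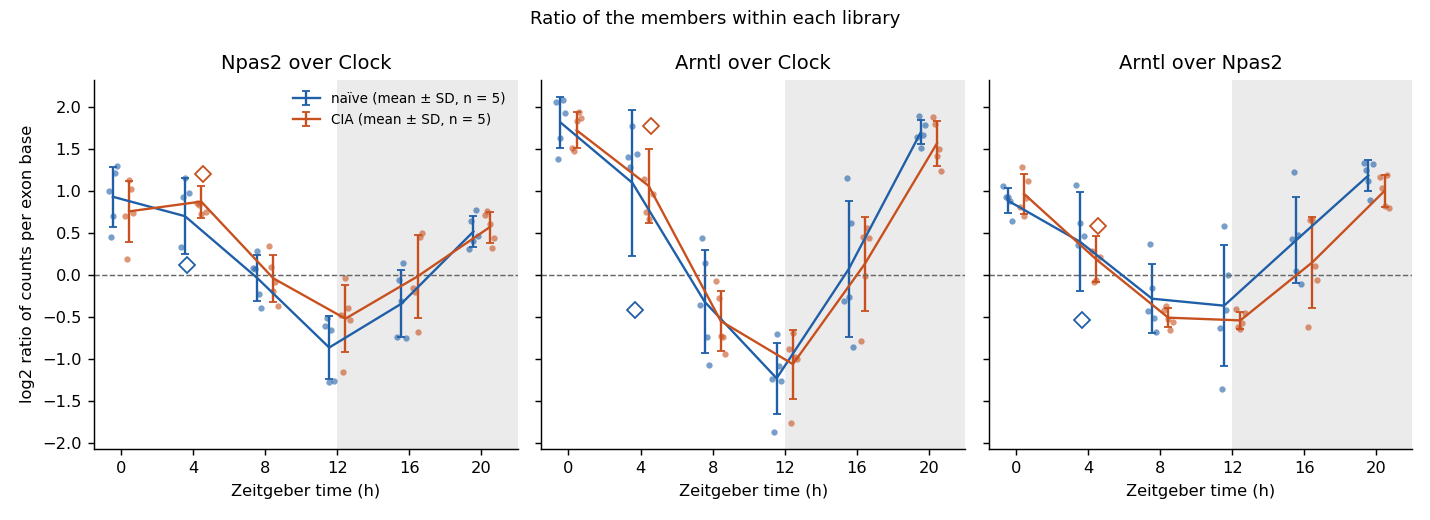
Log2 ratio of counts per exon base (vertical axis) for Npas2 over Clock, Arntl over Clock and Arntl over Npas2 within each library, at 6 Zeitgeber times (horizontal axis, hours, dark phase shaded). Points are mice, lines join group means with SD (n = 5), open diamonds mark replicate 4 at ZT4, and the dashed line is an equal level; Npas2 lay above Clock in each library at ZT0, ZT4 and ZT20 and below it in each library at ZT12.

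The ratios did not differ between treatments in the full set of libraries. CIA minus naïve and averaged over times, the log2 ratio of Arntl to Clock differed by -0.04 (permutation within times, adjusted p = 0.731), that of Npas2 to Clock by 0.12 (adjusted p = 0.205) and that of Arntl to Npas2 by -0.16 (adjusted p = 0.130). The last was lower in CIA mice at 5 of 6 times, the exception being ZT0. Without the pair of ZT4 libraries it was -0.22 with an adjusted permutation p of 0.0298, a call made only with libraries left out for their values at these genes.

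Mice of the same time and treatment that were high in one member tended to be high in another. Deviations of log2 CPM from the 12 group means were correlated over the 60 mice, with permutations within groups and adjustment over 6 relations. For Arntl and Npas2 Pearson's r was 0.70 and Spearman's rho 0.68 (100000 permutations, each adjusted p = 6e-05, the smallest they can give). For Npas2 and Clock r was 0.54 and rho 0.53 (permutation, adjusted p = 4.4e-04 and 3e-04). For Arntl and Clock r was 0.40 and rho 0.31 (permutation, adjusted p = 0.00864 and 0.0298). Leaving out the 2 mice farthest from the median on the x axis gave r of 0.63, 0.49 and 0.27. The last no longer passed (adjusted permutation p = 0.0579), so the call for Arntl and Clock over all mice turned on 2 mice. Without the pair of ZT4 libraries r was 0.62, 0.47 and 0.28. Within naïve mice r was 0.66, 0.59 and 0.38, and within CIA mice 0.77, 0.48 and 0.45. For Arntl and Clock the adjusted permutation p was 0.161 within naïve and 0.0154 within CIA mice.

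The same deviations fell as the smooth muscle score, the mean log2 CPM of the 10 marker genes, rose. For the score and Npas2 r was -0.51 and rho -0.55 (permutation, adjusted p = 4.4e-04 and 3e-04), for the score and Clock r was -0.41 and rho -0.40 (adjusted p = 0.00816 and 0.00623), and for the score and Arntl r was -0.34 and rho -0.33 (adjusted p = 0.0163 and 0.0187). Without the 2 mice of the most extreme score r was -0.60, -0.46 and -0.46. Within CIA mice r was -0.76, -0.52 and -0.63, and each passed a permutation test adjusted over 6. Within naïve mice r was -0.32, -0.31 and -0.18, and none passed (adjusted permutation p = 0.161, 0.161 and 0.399); the difference between the treatments was not tested. These points share a library and its scaling, and the part of tissue composition in the relations among the members was not tested.

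**Figure D4:**
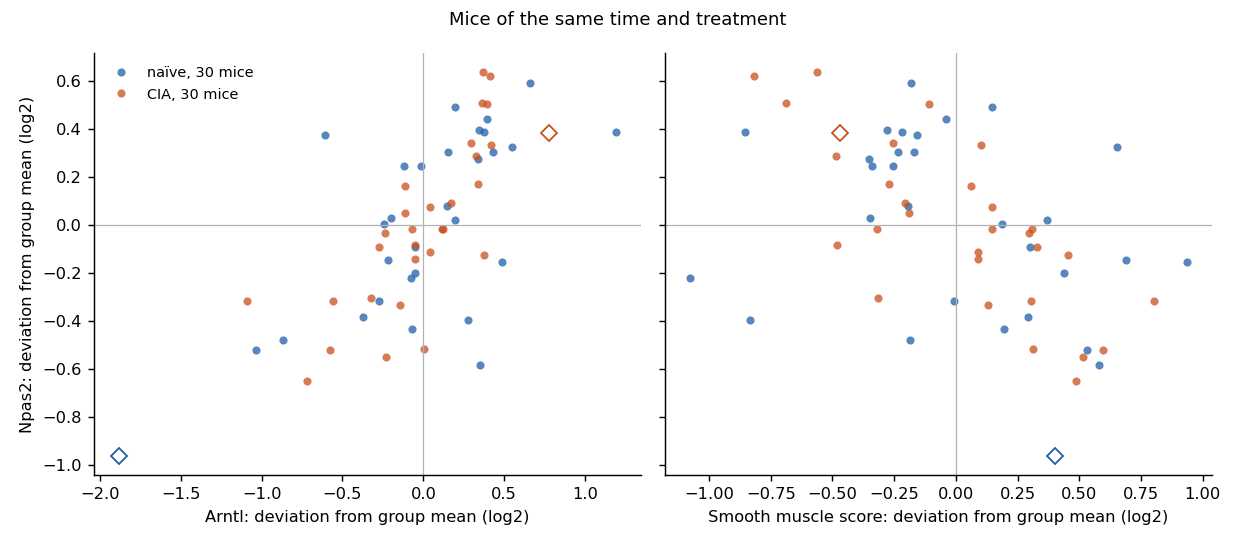
Deviation of Npas2 from its group mean (vertical axis, log2 CPM) against that of Arntl (left) and of the smooth muscle score (right), each point a mouse, 30 per treatment. Open diamonds mark replicate 4 at ZT4; Npas2 rose with Arntl (r = 0.70) and fell with the score (r = -0.51) over 60 mice.

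The 5 genes most like each member and the 5 least like it were found by Pearson's r over the 12 group means, among the 11959 genes that averaged 5 CPM or more. Clock was most like Arntl (r = 0.95), followed by Irf2bp2, Lsm11, Arrb1 and E2f2. Over the 60 single libraries r with Clock was 0.69 for Arntl, 0.62 for Irf2bp2, 0.79 for Lsm11, 0.50 for Arrb1 and 0.63 for E2f2. Npas2 was most like Zfp444, Denn2b, Cldn8, Arntl (r = 0.95) and Arl4a. Arntl was most like Spon2 (r = 0.97), 1110059E24Rik, Arrb1, E2f2 and 4932438A13Rik, with Clock and Npas2 as numbers 6 and 7 of the 11959. Of these E2f2, a cell-cycle transcription factor, had amplitudes of 1.17 and 1.24 (naïve and CIA) with peaks at ZT23.4 and ZT23.3, and Cldn8, a tight junction gene, had amplitudes of 1.12 and 1.07 with peaks at ZT23.7 and ZT0.74. At the other end Tspan4, which encodes a tetraspanin, had r of -0.98 for Arntl, -0.95 for Clock and -0.98 for Npas2, the lowest of all for Arntl and Npas2. For Clock the repressor gene Ciart was lowest, at -0.96, and Ciart was second lowest for Arntl, at -0.98. Per1 and Tef were also among the 5 lowest for each of the 3. The 12 points of each r share the daily swing, so genes with a peak near the same time score high whatever their amplitude, as 4932438A13Rik did with 0.14 and 0.16.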

How the data were processed

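RNA was extracted from 60 mid-colon sections, 1 library per mouse. According to the methods and processing notes, stranded mRNA libraries were sequenced as paired ends, demultiplexed (bcl2fastq 2.17.1.14), trimmed (Trimmomatic 0.36), aligned to mm10/GRCm38 (STAR 2.5.3) and counted per Entrez gene with Rsubread. The authors deposited raw counts for 27179 Entrez genes, of which 25275 were named from RefSeq (GRCm38.p6), 17 from GENCODE vM21 and 1887 not at all. Whether strand and read pairs were used in counting is not given in the sources used here, and 74.0% of counts from 1 to 20 were even, so halved counts were an alternative. Of Arntl, 33 exon bases are shared with an antisense gene.

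In R 4.3.3, genes were kept by filterByExpr with the 12 groups (minimum count 10, minimum total 15), scaled by TMM and tested with edgeR 4.0.16 (legacy quasi-likelihood F test, trended dispersion), with Benjamini-Hochberg adjustment over 18057 genes and a threshold of 0.05. The treatment comparison had treatment as its only term. When 1 library was left out, the trended dispersion of all 60 was kept. Cosines and models were fitted to log2 CPM (prior count 2), and log2 ratios used a prior count of 0.5. Intervals are at 95%. Alternatives used DESeq2 1.42.0, limma 3.58.1, RLE scaling, no filter, the replicate number, the smooth muscle score, fewer libraries and other exon lengths. Ratios and correlations used Python 3.11.15 and numpy 2.4.6. The tests across genes were tried on simulated counts with known changes. The treatment test recovered 46 of 50 genes changed 1.5-fold. The rhythm test in naïve mice recovered 50 of 50 genes of amplitude 1 and 23 of 50 of amplitude 0.25. The test of a difference recovered 35 of 50 genes with amplitude 1 in naïve and 0.5 in CIA mice, and smaller differences in rhythm were not simulated. The fits combining fewer libraries with time as a factor, the single-time comparison without the ZT4 pair, the exon lengths and the correlations within treatments were chosen after seeing the data. The 3 members, the gene lists and the tests were chosen with earlier results of these data known. Pathway genes were named from those lists, at most 8 per list, and markers were given as list summaries. Some listed genes are not reported here.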

Additional observations from a re-analysis of the deposited data

Results flagged for a closer look

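Among the 36 groups of 5 libraries formed by the 3 genes, 2 treatments and 6 times, 3 had a library whose gap to its neighbour was unusually large for the range of its group. The gap was taken on log2 CPM against Dixon's critical value of 0.71, a limit that chance passes in about 1 of 20 groups. Arntl was lowest in naïve ZT4 replicate 4, at 12.03 CPM, with a gap of 0.849 of the range. It was also lowest in CIA ZT16 replicate 1, at 9.92 CPM, with a gap of 0.726. Clock was highest in CIA ZT8 replicate 4, at 84.3 CPM, with a gap of 0.816. The CIA ZT4 replicate 4 library, which stood apart at Arntl, did not pass this limit for any of the 3 genes.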

How the results depend on the processing

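Of 276 values recomputed under other settings 258 counted as kept, and of 2400 values with 1 library left out 2341 did. A value with a test was kept if its direction and its side of the threshold held. Without a test, cosine amplitudes and ratio means were kept within an SD and peaks within their SE. For Clock in CIA mice the residual SD, 0.181, exceeded the amplitude, 0.155, so no fall of that amplitude could count. The ratios had no test with 1 library left out. Their differences were then judged by direction alone, and their amplitudes were kept at any value. Time as a factor ended the rhythm call of Clock in CIA mice (amplitude 0.16, edgeR adjusted p = 0.150, and 0.142 with the ZT4 pair also left out, 0.16 again). With the smooth muscle score as covariate the log2 fold changes over all times were 0.028 for Arntl and 0.072 for Clock. Without the ZT4 pair that of Npas2 was -0.051 over all times and -0.22 at ZT4, and the log2 ratio of Arntl to Npas2, CIA minus naïve, was -0.22 and passed. In 1 fit of all 60 libraries Clock at ZT16 was at -0.000768. The mean log2 ratio over the 12 groups was -0.40 for Arntl to Clock over all exons and 0.015 over the longest transcript, and for Arntl to Npas2 it was -0.90 and -0.17. Another length shifts every ratio of a pair by a constant. For Arntl and Clock r was 0.27 without the 2 farthest mice and 0.38 within naïve mice, neither past the test, and within naïve mice the score gave r of -0.18 with Arntl, -0.31 with Clock and -0.32 with Npas2. For the other changes the cause was not tested.

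With 1 library left out in turn, the amplitude of Clock in CIA mice ranged from 0.13 to 0.18 on the log2 scale. Signs turned only for differences that had no call. The log2 fold change of Npas2 over all times ran from -0.050 to 0.068, at ZT4 from -0.11 to 0.21, at ZT8 from -0.17 to 0.097 and at ZT20 from -0.12 to 0.076. That of Clock ran from -0.10 to 0.038 at ZT0, from -0.12 to 0.046 at ZT4, from -0.19 to 0.043 at ZT8 and from -0.051 to 0.041 at ZT16. That of Arntl at ZT16 ran from -0.25 without naïve replicate 5 to 0.38 without naïve replicate 2, and the log2 ratio of Arntl to Clock, CIA minus naïve, from -0.11 to 0.0021.

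Samples of equal time and replicate number were compared across treatments by the correlation of their deviations from the group means. It ran from -0.471 to 0.446 over 30 pairs (median -0.044) and was over 0.1 in 8, so the numbers were not taken to pair the mice. With the replicate number as a block the log2 fold change of Arntl at ZT16 was 0.052, the call counts were 6715 over all times, 6400 and 5266 for rhythm and 0 for its difference, and no call on the 3 genes changed.

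Over all genes the comparison over all times called 6860, and 1124 with the smooth muscle covariate. The rhythm test called 6392 genes in naïve mice, and 4001 with time as a factor. The difference in rhythm called 4 genes, 30 with no filter on low counts, 1 with halved counts and 0 with DESeq2, limma or time as a factor, while 1176 had an unadjusted p under 0.05. Each of the 3 genes had at least 194 counts in every library. With 5 mice a group the exact test of 2 groups cannot go below 0.00794.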
